A study of Mus musculus with 30 samples.

Results

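Vehicle-treated livers of Keap1 C151S knock-in and wild-type mice were compared to ask what the mutation alone changes, before any inducer is given. The comparison takes the 5 C151S and the 5 wild-type vehicle libraries, 10 of the 30 in the series, picked by the genotype and the treatment in their labels. The whole series also holds Nrf2-knockout livers and a CDDO-Me arm, again with 5 mice for each genotype. CDDO-Me (bardoxolone methyl) is a synthetic triterpenoid that activates NRF2, and it or its vehicle of dimethyl sulfoxide and Cremophor in saline was given by mouth, with livers taken 24 h later and CDDO-Me dosed at 30 µmol/kg. All mice were males aged 7 to 10 weeks of an albino C57BL/6J strain, B6(Cg)-Tyr c-2J/J. The C151S allele was made by CRISPR-Cas9 and is carried in every cell in both copies, as is the Nrf2 deletion in the knockout. Wild-type mice were bought from the Jackson Laboratory, whereas the mutants were bred from homozygous parents, so that genotype and colony cannot be told apart here.

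KEAP1 is a substrate adaptor of a cullin 3 ubiquitin ligase and holds NRF2, a transcription factor encoded by Nfe2l2, at a low level by marking it for degradation. Electrophiles that modify KEAP1 cysteines stop this marking, and NRF2 then accumulates and binds antioxidant response elements of genes for glutathione, NADPH, and conjugation enzymes. The cysteine replaced by serine in C151S is the one that many electrophiles, CDDO-Me among them, react with. In liver, a low NRF2 activity without any inducer sets part of the basal level of detoxification enzymes.

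The mutated residue is shown in its reference context, since it is the only designed difference between the genotypes. The codon of this residue, 1 of the 624 codons of Keap1, lies in exon 2 of transcript Keap1-201 on the minus strand of GRCm38, at chr9:21237257-21237259, and is in capitals in the 27 bases below (GENCODE M21, chr9:21237245-21237271, 5′ to 3′ of the transcript).
Keap1 codon of C151S, reference: gtgggcgagaagTGTgtcctgcacgtg
The capitals are a cysteine codon. The bases of the edited allele were not analysed here, and counts per gene cannot show them.

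Each library held between 23667068 and 37391760 counts on genes, with a median of 31759549.5. Genes took 65.9% to 78.4% of the reads, and this share was 72.3% to 78.4% in C151S and 65.9% to 74.5% in wild-type libraries. Expression is given as normalized read counts (CPM, the counts scaled to a common library size with edgeR's TMM factors). A differentially expressed gene (DEG) had an edgeR false discovery rate, the adjusted p, under 0.05 and differed by 0.5 or more on the log2 scale. The tissue label was checked against hepatocyte markers, and Alb, the serum albumin of hepatocytes, stood at 96470 ± 8648 CPM in C151S and 79630 ± 6775 CPM in wild-type livers (SD, n = 5), and none of the 10 hepatocyte markers was a DEG (1 was higher without the pair of livers described next).

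A pair of C151S livers stood apart in clock transcripts before any test. Arntl, a core activator of the circadian clock, was at 12.0, 5.69, 26.4, 0.390, and 0.438 CPM in C151S replicates 1 to 5 and at 12.1, 27.7, 9.53, 11.2, and 13.3 CPM in wild-type replicates 1 to 5. C151S replicates 4 and 5 were thus far below every wild-type liver, and the other 3 lay within or close to the wild-type range. In Nrf2-knockout livers Arntl was at 1.45, 0.963, 0.630, 11.2, and 16.0 CPM, low in replicates 1 to 3. Over the 500 most variable genes of the 15 vehicle-treated livers, the 2 did not lie together. On the first principal component (44.7% of the variance) C151S replicate 4 was at 10.7, replicate 5 at -14.3, and the other 3 at -16.7 to -12.0, and wild-type replicate 2 was at 8.63 against 25.5 to 31.5 for the other wild-type livers. On the second (13.9%), C151S replicates 4 and 5 were at -17.6 and -1.90, both below the other 3, at 9.46 to 16.3. Wild-type livers lay at -2.9 to 16.3 there. The hour of collection is not given in the sources used here, and its part in the results was not tested. The DEG counts of all genes and of most lists are therefore given with and without C151S replicates 4 and 5, a choice made after the values were seen.

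Of 13946 genes tested, 675 were DEGs between C151S and wild-type livers (4.84%), 361 of them higher in C151S (2.59%) and 314 lower (2.25%). The median log2 fold change over all genes tested was 0.01. Without a threshold on the size, 1160 genes passed the false discovery rate. The CPM values of the groups did not overlap in 1240 genes (8.89%). Upper-quartile in place of trimmed-mean scaling gave 460 higher and 252 lower DEGs, so that the share of DEGs that were higher went from 53.5% to 64.6%. Without C151S replicates 4 and 5, 2030 of 14305 genes were DEGs (14.2%), 9.41% higher and 4.78% lower, and these held 605 of the 675. All 675 had an unchanged direction there, in livers that had also picked them. With 1 liver left out at a time, the count ranged from 390 without C151S replicate 2 to 1168 without C151S replicate 4, was 711 without C151S replicate 5, and it was 418 and 404 without wild-type replicates 4 and 5. In bulk liver, fewer cells of a type and less RNA per cell cannot be told apart.

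Keap1 itself was at 38.1, 47.1, 38.9, 49.4, and 51.4 CPM in C151S and 49.6, 64.6, 48.5, 60.4, and 52.3 CPM in wild-type livers (replicates 1 to 5). The ranges overlapped, and Keap1 was no DEG (log2 fold change -0.28 ± 0.11 (SE), adjusted p = 0.13). Nfe2l2 was at 79.7, 83.4, 84.9, 74.9, and 66.0 CPM in C151S and 68.9, 64.0, 66.4, 71.0, and 60.4 CPM in wild-type livers. Its log2 fold change of 0.25 ± 0.09 (SE) also missed the threshold (adjusted p = 0.0885). In Nrf2-knockout livers, whose label it checks, Nfe2l2 was lower, at 31.2, 37.1, 39.8, 38.2, and 29.5 CPM. None of the 13 genes of the KEAP1-NRF2 system list, which holds the small MAF partners, Bach1, Cul3, and the NRF2 relative Nfe2l1, was a DEG. Their lowest adjusted p was that of Nfe2l1 (0.057, log2 fold change -0.31).

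Some NRF2 target transcripts were lower in C151S livers, by modest amounts, and most of those tested were no DEGs. Of 55 target genes in 5 lists, 53 were tested, 13 were lower DEGs, and 0 were higher DEGs, against 2.25% and 2.59% of all genes tested. The median log2 fold change of the 53 was -0.32, against 0.01 over all genes, and 46 of the 53 were below 0. Without C151S replicates 4 and 5 these counts were 16 lower and 1 higher, against 4.78% and 9.41% of all genes. The count of 13 was 6 without C151S replicate 2 or wild-type replicate 1, and 8 without C151S replicate 1, C151S replicate 3, wild-type replicate 4, or wild-type replicate 5. Me1, Aox1, Ces1g, and Gstm4 were called in each of these fits.

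Among glutathione and thioredoxin genes, the DEG was Srxn1, the sulfiredoxin that repairs overoxidized peroxiredoxins. It was at 35.7, 36.9, 36.0, 37.7, and 43.4 CPM in C151S and 52.2, 68.7, 52.8, 59.9, and 49.5 CPM in wild-type livers, replicates 1 to 5. All C151S values were below all wild-type values, and the fitted level was 1.48 times as high in wild-type (log2 fold change -0.56 ± 0.10 (SE), adjusted p = 0.00717, edgeR). Txnrd1 (thioredoxin reductase, -0.41 ± 0.09) and Gsr (glutathione reductase, -0.41 ± 0.09) passed the false discovery rate but not the size threshold. Gclc, the catalytic subunit of the first enzyme of glutathione synthesis, missed the false discovery rate (log2 fold change -0.51 ± 0.16, adjusted p = 0.0722).

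Conjugation enzymes held 5 of the 13 DEGs. Gstm1, a glutathione S-transferase and the most abundant transcript of the 5 lists by CPM, was at 1339, 1530, 1259, 1111, and 1472 CPM in C151S and 2160, 2703, 1663, 1879, and 1631 CPM in wild-type livers. The groups did not overlap, although wild-type replicate 5 and C151S replicate 2 lay close (log2 fold change -0.57 ± 0.15 (SE), adjusted p = 0.042). The call on Gstm1 was lost in 7 of the 10 fits that left out 1 liver. Its neighbour in the same gene cluster, Gstm4, was at 61.4, 62.0, 64.0, 46.7, and 56.1 CPM in C151S and 110.2, 98.4, 94.8, 98.3, and 84.5 CPM in wild-type livers. Every C151S value was again below every wild-type value (log2 fold change -0.73 ± 0.10 (SE), adjusted p = 0.00307). Per kilobase of exon, the mean level of Gstm1 was 911 CPM in C151S and that of Gstm4 34.0 CPM. The other members were Gstp1 (-0.58 ± 0.13) and the glucuronosyltransferases Ugt2b5 (-0.65 ± 0.16) and Ugt2b35 (-0.94 ± 0.20), where C151S replicate 4 lay within the wild-type range for Ugt2b35 and the call on Ugt2b5 was lost in 7 of the 10 fits that left out 1 liver. Ephx1, the microsomal epoxide hydrolase, had a log2 fold change of -0.43 ± 0.11, under the size threshold. Transferases of 1 family are near-identical in parts, and only uniquely mapped reads were counted, so each member is counted in part.

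Enzymes of quinone, carbonyl, and ester metabolism split. Aox1, an aldehyde oxidase, was at 92.6, 95.4, 115, 79.8, and 74.9 CPM in C151S and 187, 149, 168, 137, and 142 CPM in wild-type livers, without overlap (log2 fold change -0.76 ± 0.13 (SE), adjusted p = 0.00725). Ces1g, a carboxylesterase, fell by 1.19 on the log2 scale (adjusted p = 0.0133), and the retinaldehyde dehydrogenase Aldh1a1 fell by 0.89 (adjusted p = 0.0255). The call on Aldh1a1 was lost in 6 of the 10 fits that left out 1 liver. Nqo1, the quinone reductase most often read as an NRF2 target, was at 6.30, 7.34, 6.54, 6.67, and 6.68 CPM in C151S and 9.23, 9.20, 4.51, 8.33, and 4.73 CPM in wild-type livers. The C151S values lay inside the wild-type range, and the log2 fold change was -0.08 ± 0.21 (SE, adjusted p = 0.828). Cbr3, a carbonyl reductase (-0.53 ± 0.32, adjusted p = 0.317), and the carboxylesterase Ces1b (-0.07 ± 0.10, adjusted p = 0.723) were no DEGs either. Gpx2, a glutathione peroxidase named by the study, was too low to be tested. By qPCR, a different measure, the study described Nqo1, Cbr3, and Gpx2 as lower in C151S than in wild-type livers after a single dose of vehicle. It also gave a lower basal NQO1 enzyme activity in C151S livers, a measure of protein and not of RNA.

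In NADPH supply, Me1 had the strongest decrease of all 53 targets. Me1 encodes malic enzyme, which makes NADPH for fatty acid synthesis, and was at 72.6, 60.3, 91.2, 128, and 102 CPM in C151S and 262, 186, 259.5, 302, and 203 CPM in wild-type livers. The highest C151S liver, replicate 4, was below the lowest wild-type liver, and the fitted level was 2.66 times as high in wild-type (log2 fold change -1.41 ± 0.19 (SE), adjusted p = 0.00241). Tkt, the transketolase of the pentose phosphate pathway, was lower by a smaller amount (-0.50 ± 0.09, adjusted p = 0.00948). Of the efflux, heme, and iron genes, the exporter Abcc3 (-0.50 ± 0.12) and the biliverdin reductase Blvrb (-0.63 ± 0.16) were lower. Of the 10 fits that left out 1 liver, 7 lost the call on Abcc3, 7 that on Blvrb, and 5 that on Tkt, and RLE or upper-quartile scaling also lost Abcc3 and Tkt. Without C151S replicates 4 and 5 Abcc3 was no DEG (log2 fold change -0.42). Hmox1, heme oxygenase, had the highest log2 fold change of the 53, 0.42, and was not called.

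The plot of NRF2 targets by liver sets these values beside those of Nrf2-knockout mice.

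**Figure D1:**
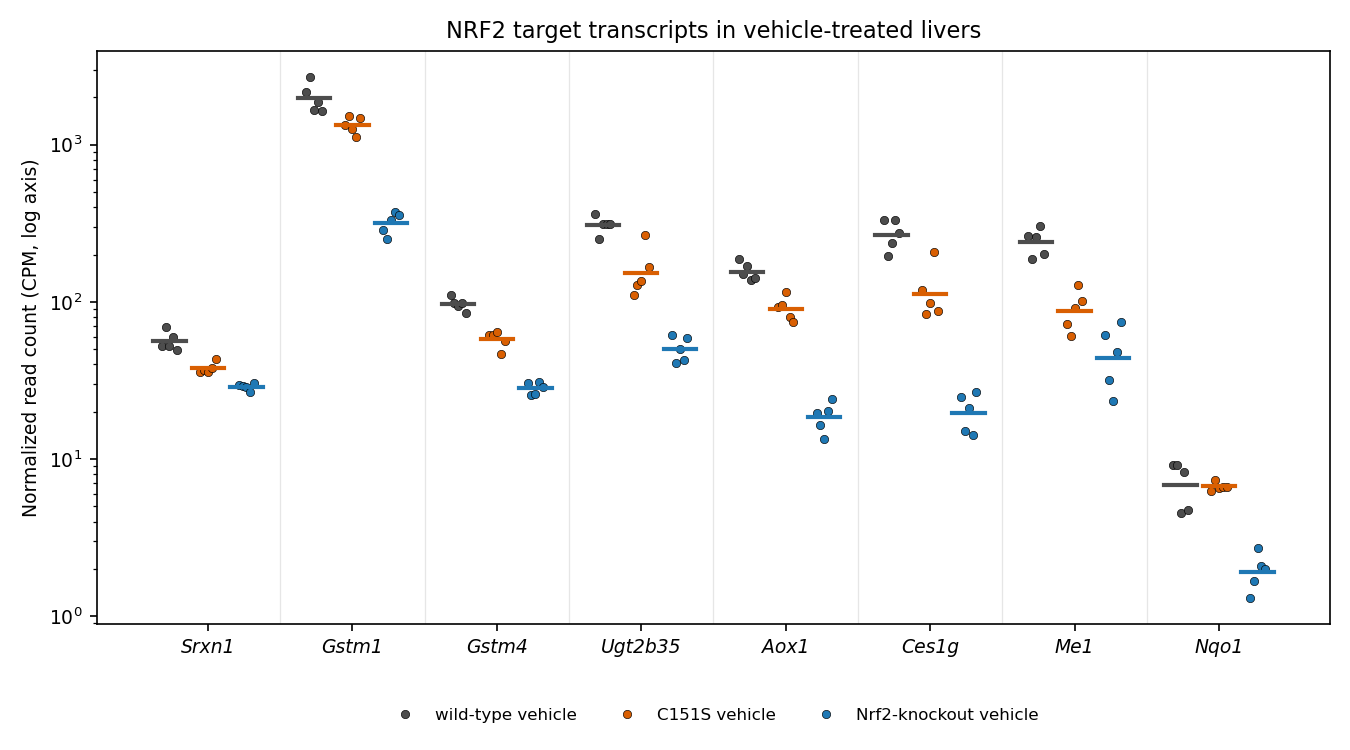
Normalized read count (CPM, log axis) of 8 NRF2 target transcripts in the 5 wild-type, 5 C151S, and 5 Nrf2-knockout vehicle-treated livers. Each point is 1 liver and each bar the geometric mean of its group. The C151S bar lies between those of the other genotypes for Gstm1, Gstm4, Aox1, and Srxn1, and Srxn1 was no DEG against the knockout. For Nqo1 the C151S livers lie inside the wild-type range.

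C151S livers kept more of this expression than Nrf2-knockout livers. Tested directly against the knockout, 50 of 14323 genes were DEGs (0.349%), 44 of them higher in C151S (0.307%) and 6 lower (0.0419%), and 19 of the 50 were genes of the NRF2 target lists. Gstm1 was at 288, 251, 333, 374, and 358 CPM in Nrf2-knockout livers, all below the C151S values, and was 2.06 higher in C151S on the log2 scale (adjusted p = 0.000111). Aox1 was 2.29 higher on that scale (adjusted p = 0.000147), Gstm4 1.04 (adjusted p = 0.00145), and Nqo1 1.77 (adjusted p = 0.00143). Srxn1 (0.39, adjusted p = 0.0611) and Me1 (0.92, adjusted p = 0.302) missed the threshold against the knockout. With the replicate number as a block this comparison gave 9 DEGs in place of 50, and without Nrf2-knockout replicate 2 it gave 29. It gave 31 without C151S replicate 1, C151S replicate 2, or Nrf2-knockout replicate 3.

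Of the 675 DEGs, 17 also differed between C151S and Nrf2-knockout livers. For 12 of them C151S lay between the other genotypes, and Abcc3, Aox1, Ces1g, Gstm1, Gstm4, Ugt2b35, and Ugt2b5 of the target lists were among these. The other 5 differed from both genotypes in the same direction, in comparisons that share the C151S livers and so are not independent. They were Ide and Tbc1d2, which were lower in C151S, and Abcc12, Lrit2, and Ugt1a9, which were higher, and all but Ide were named after their values were seen. Against wild-type, where both comparisons share the wild-type livers, Nrf2-knockout livers had 1462 DEGs of 14030 genes (10.4%, as 6.29% higher and 4.13% lower), or 949 without Nrf2-knockout replicate 3. Of the 53 targets, 35 were lower DEGs there, against 4.13% of all genes, with a median log2 fold change of -0.90.

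A core antioxidant response element, TGACNNNGC on either strand, was looked for between 250 bases before and 50 bases after the annotated starts of RefSeq genes (GRCm38.p6). It was present in 14% of all 27025 genes in the table, in 16.7% of the genes tested that matched, in 14.8% of the lower DEGs and 14.8% of the higher DEGs, and in 14 of the 49 NRF2 targets that matched by symbol (28.6%). Among the targets that were DEGs, Srxn1 and Me1 held it, 2 of 12 that matched (16.7%), the share over all genes tested. Their stretches are printed, with that of Txnrd1, since these are the targets described above that carry the match. The 9 matched bases are in capitals, read 5′ to 3′ on the strand named.
Srxn1 (chr2:152105542-152105570, minus strand): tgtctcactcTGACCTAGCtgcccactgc
Me1 (chr9:86695902-86695930, minus strand): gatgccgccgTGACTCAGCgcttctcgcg
Txnrd1 (chr10:82859104-82859132, minus strand): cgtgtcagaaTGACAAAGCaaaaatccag
In Srxn1 the match starts 29 bases into the transcript, in Me1 it spans the start, and in Txnrd1 it ends 83 bases before it. A match describes the letters in this window and no binding was measured.

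The gene with the lowest p was Ide, which encodes insulin-degrading enzyme (ENSMUSG00000056999.15, chromosome 19, 37268743 to 37337852, GRCm38). It was at 74.0, 65.0, 83.9, 80.4, and 72.0 CPM in C151S and 220.2, 201, 226, 221, and 221 CPM in wild-type livers. The highest C151S value was far below the lowest wild-type value, and the fitted level was 2.88 times as high in wild-type (log2 fold change -1.52 ± 0.08 (SE), adjusted p = 3.59e-06). In Nrf2-knockout livers it was at 171, 113, 134, 142, and 118 CPM, above every C151S value (log2 fold change of C151S over knockout -0.85, adjusted p = 0.00971). In the CDDO-Me mice Ide was at 82.7 ± 5.73 CPM in C151S and 232 ± 32.4 CPM in wild-type livers (SD, n = 5). Tbc1d2, a RAB GTPase-activating protein, was at 0.517, 0.599, 0.664, 0.651, and 0.465 CPM in C151S and 1.36, 1.58, 1.57, 1.26, and 1.34 CPM in wild-type livers, with no overlap (log2 fold change -1.28 ± 0.18 (SE), adjusted p = 0.00268).

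Other strongly supported DEGs lower in C151S included S100a10, the annexin A2 partner, and the beta-tubulin Tubb4b. S100a10 was at 41.4, 34.6, 46.9, 40.3, and 33.8 CPM in C151S and 98.4, 75.6, 94.2, 103, and 98.6 CPM in wild-type livers, so that the groups were far apart (log2 fold change -1.24 ± 0.11 (SE), adjusted p = 0.000259). Tubb4b (-1.30 ± 0.13), the ceramide regulator Ormdl3 (-0.80 ± 0.07), the COPII coat subunit Sec24d (-0.82 ± 0.07), the calcium-binding protein gene Nucb2 (-1.98 ± 0.17), the anchoring filament protein gene Lad1 (-1.86 ± 0.20), the inositol kinase gene Itpk1 (-0.66 ± 0.07), and the major urinary protein gene Mup21 (-1.47 ± 0.15) were also lower, with no overlap. The predicted gene Gm32468 had 1, 1, 7, 1, and 1 counts in C151S and 115, 82, 146, 120, and 138 counts in wild-type libraries, and no fold is given at such counts.

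Higher in C151S with the lowest p was Gpat3, a glycerol-3-phosphate acyltransferase of triglyceride synthesis. It was at 9.73, 12.6, 10.2, 9.79, and 9.36 CPM in C151S and 1.89, 2.06, 2.28, 1.41, and 1.27 CPM in wild-type livers. Each C151S liver exceeded each wild-type liver, and the fitted level was 5.83 times as high (log2 fold change 2.54 ± 0.17 (SE), adjusted p = 3.05e-05). Igf2bp3, an RNA-binding protein of fetal liver, was at 2.42, 3.12, 3.52, 4.16, and 4.60 CPM in C151S and 0.0439, 0.309, 0.0525, 0.314, and 0.0706 CPM in wild-type livers. Wild-type livers were near the floor of detection and every C151S liver was above them, with 1, 9, 2, 10, and 2 counts in wild-type libraries, so that no fold is given, and the gene passed the filter on low counts through the C151S livers. Timp3, an inhibitor of metalloproteinases (0.84 ± 0.07), the adhesion molecule Vcam1 (1.35 ± 0.14), the basement membrane collagen Col4a5 (1.73 ± 0.20), Armcx4 (1.35 ± 0.15), Txndc16 (0.87 ± 0.10), the sulfotransferase Sult1c2 (0.82 ± 0.10), and the desmosomal cadherin Dsg1c (1.22 ± 0.16) were higher without overlap. Cyp2c40 (2.54 ± 0.29) was higher as well, with near-identical neighbours that may share its reads. In 1 edgeR fit of all 30 libraries Vcam1, Sult1c2, and Cyp2c40 were no DEGs (adjusted p = 0.0528, 0.101, and 0.0587).

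Chaperones of the endoplasmic reticulum formed a second group of lower transcripts. Of 18 genes tested in the list of endoplasmic reticulum stress and ATF4 targets, 8 were lower DEGs and 0 were higher, against 2.25% and 2.59% of all genes tested, with a median log2 fold change of -0.41. Hspa5, the ATP-driven chaperone BiP, was at 544, 404, 485, 719, and 596 CPM in C151S and 1227, 1856, 1218, 1275, and 1505 CPM in wild-type livers. The groups were separate, and the fitted level was 2.56 times as high in wild-type (log2 fold change -1.36 ± 0.16 (SE), adjusted p = 0.00113). Hyou1, its nucleotide exchange factor, was at 83.4, 59.0, 84.7, 143, and 100.1 CPM in C151S and 298, 422, 279.9, 277, and 353 CPM in wild-type livers. Creld2, a secreted stress-induced factor, was at 14.7, 10.5, 13.9, 31.9, and 17.4 CPM in C151S and 65.2, 122, 83.8, 74.3, and 125 CPM in wild-type livers. For both, C151S replicate 4 was the highest of its group and still below every wild-type liver (log2 fold changes -1.78 ± 0.21 and -2.41 ± 0.29 (SE)).

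The other lower members were Sdf2l1 (-1.73 ± 0.20), Hsp90b1, which encodes GRP94 (-0.88 ± 0.10), the secreted factor Manf (-1.50 ± 0.22), the disulfide isomerase Pdia4 (-0.86 ± 0.13), and the transcription factor Atf4 (-0.53 ± 0.09). Members that were no DEGs included Xbp1 (log2 fold change -0.14), Dnajb9 (0.16), Herpud1 (0.48), Asns (0.11), and Trib3 (-0.23). Leaving out any 1 liver left 7 or 8 lower members, and without C151S replicates 4 and 5 there were 9, against 4.78% of all genes. Of the cytosolic heat shock list, Hsp90aa1 (-0.94 ± 0.16) and Hspb1 (-1.01 ± 0.22) were lower among 14 tested, with a median of -0.03, and without C151S replicates 4 and 5 there were 6 lower members and a median of -0.38. Nrf2-knockout livers, at 621, 789.9, 569, 646, and 440.4 CPM for Hspa5, did not differ from C151S by more than the threshold (log2 fold change -0.16, adjusted p = 0.764).

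**Figure D2:**
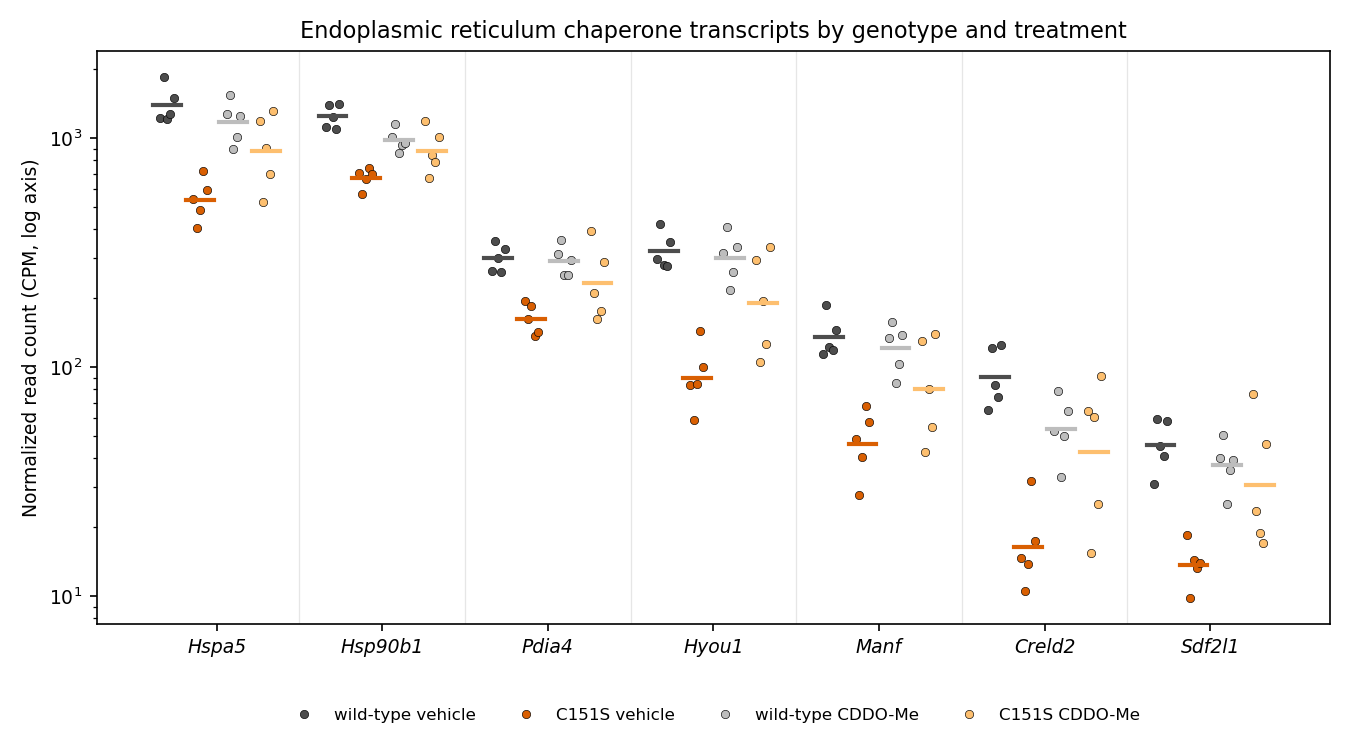
Normalized read count (CPM, log axis) of 7 endoplasmic reticulum chaperone transcripts in wild-type and C151S livers after vehicle or CDDO-Me, 5 livers a group. Points are single livers and bars are geometric means. C151S and wild-type do not overlap after vehicle, where all 7 were picked as lower DEGs, and overlap after CDDO-Me.

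In mice given CDDO-Me the 7 chaperone transcripts plotted overlapped between the genotypes. All 7 were picked as lower DEGs after vehicle, so that a smaller difference in other mice follows in part from that choice. Hspa5 was at 929 ± 330 CPM in C151S and 1198 ± 254 CPM in wild-type livers (SD, n = 5), and Sdf2l1 at 36.4 ± 25.2 and 38.2 ± 9.11 CPM. Their log2 fold changes there were -0.35 and -0.05, and of the list 0 members were lower DEGs and 1 was higher, against 2.8% and 2.2% of all genes. The change of the genotype difference between vehicle and CDDO-Me passed the test in 1 of these members, Creld2 (2.29 on the log2 scale, adjusted p = 0.0249, 1 edgeR fit of 30 libraries). For Hspa5 (1.00, adjusted p = 0.224) and Hsp90b1 (0.77, adjusted p = 0.0569) it did not. The contrast reuses the vehicle livers in which these members were picked, so that it is no independent test of a change with treatment.

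Among sex-biased transcripts under growth hormone control, some male-biased genes were lower and some female-biased genes higher in C151S livers, all from males. Of 18 male-biased genes tested, 5 were lower DEGs and 0 were higher (median log2 fold change -0.57, 13 of 18 below 0), and of 13 female-biased genes 3 were higher DEGs. Over all genes tested 2.25% were lower and 2.59% higher. Of the 13 female-biased genes 6 were too low to be tested, and Cyp2a4 and Cyp2b9 passed the filter through the C151S livers, so that their count is a description. With at least 10 counts asked of every library, 1 female-biased gene was higher. Elovl3, a fatty acid elongase of male liver, was at 74.3, 29.7, 129, 28.8, and 18.5 CPM in C151S and 275, 397, 344, 187, and 334 CPM in wild-type livers. The groups did not overlap, but C151S livers spread over a wide range (log2 fold change -2.43 ± 0.49 (SE), adjusted p = 0.0125). Cyp7b1, an oxysterol hydroxylase, was at 47.2, 41.3, 75.9, 132, and 61.6 CPM in C151S and 194, 194, 299.8, 142, and 262 CPM in wild-type livers (log2 fold change -1.60 ± 0.30 (SE)). Cyp4a12a, a fatty acid hydroxylase (-0.98 ± 0.16), the steroid dehydrogenase Hsd3b5 (-1.23 ± 0.28), and the repressor Bcl6 (-1.62 ± 0.40) were the other lower DEGs. Bcl6 was at 7.95, 49.7, 31.7, 55.2, and 59.4 CPM in wild-type livers, low in replicate 1.

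Cyp2a4, a steroid hydroxylase of female liver, was at 48.9, 184, 24.3, 4.75, and 269 CPM in C151S and 0.264, 4.08, 0.184, 0.251, and 0.177 CPM in wild-type livers. C151S replicate 4 and wild-type replicate 2 nearly met, and the other 4 wild-type libraries held 5 to 8 counts, so that no fold is given. Its near-identical copy Cyp2a5 may share its reads. Cyp2b9 was at 1.29, 8.30, 0.536, 3.81, and 3.64 CPM in C151S and 0.220, 0.0343, 0, 0, and 0.494 CPM in wild-type livers, with 0 counts in wild-type replicates 3 and 4, so that no fold is given. Cyp17a1, a steroid hydroxylase and lyase, was higher too (1.92 ± 0.47, adjusted p = 0.0297), with C151S replicate 4 inside the wild-type range. The calls on Cyp17a1 and Bcl6 were each lost in 7 of the 10 fits that left out 1 liver. The receptor Ghr (log2 fold change -0.02), the signal transducer Stat5b (-0.09), and the secreted target Igf1 (0.23) were no DEGs. Selenbp2, which the study names, had a log2 fold change of -0.97 ± 0.36 (adjusted p = 0.112). Without C151S replicates 4 and 5, 9 male-biased genes were lower, against 4.78% of all genes, and 5 female-biased genes higher, against 9.41%. The count of 5 male-biased genes was 9 without C151S replicate 4 alone, and 3 without C151S replicate 1, C151S replicate 2, wild-type replicate 3, or wild-type replicate 5. In 1 fit of all 30 libraries it was 0, and 1 female-biased gene was higher.

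**Figure D3:**
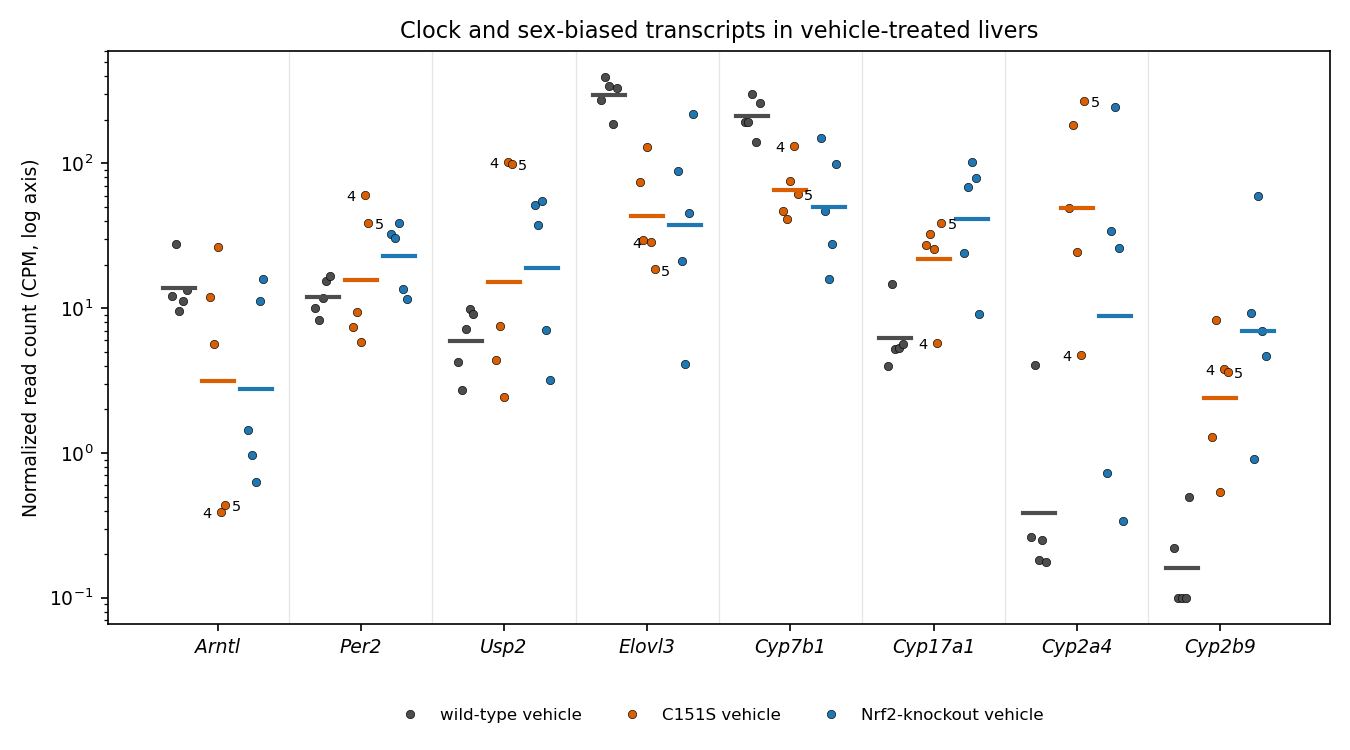
Normalized read count (CPM, log axis, values under 0.1 drawn at 0.1) of 3 clock, 2 male-biased, and 3 female-biased transcripts in vehicle-treated livers of the 3 genotypes, 5 livers each. Points are single livers, bars are geometric means, and the numbers mark C151S replicates 4 and 5. Those 2 livers part from the other C151S livers for Arntl, Per2, and Usp2.

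Several clock transcripts moved with the pair of low-Arntl livers. Per2, a clock repressor, was at 7.37, 9.44, 5.82, 60.3, and 38.7 CPM in C151S and 10.1, 8.27, 11.7, 15.4, and 16.6 CPM in wild-type livers, high in C151S replicates 4 and 5 only. Its log2 fold change of 0.97 became -0.69 without them, where Per2 was a lower DEG (adjusted p = 0.0489, edgeR). The log2 fold change of the ubiquitin protease gene Usp2 went from 2.7 to -0.45. The repressor Ciart was the 1 DEG among 15 core clock genes (3.66 ± 1.00, adjusted p = 0.0448), where 4.84% of all genes were DEGs. The call was lost in 8 of the 10 fits that left out 1 liver, and without the pair its log2 fold change was 0.72 and no longer passed (adjusted p = 0.29). None of 13 clock output genes was a DEG. Without the pair 2 of the 15 core and 2 of the 13 output genes were lower DEGs and 0 were higher, against 4.78% and 9.41% of all genes.

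Cell division transcripts were higher in part. Of 23 tested, 4 were higher DEGs and 0 lower, against 2.59% and 2.25% of all genes, with a median log2 fold change of 0.77 and 2 of 23 below 0. Ccnd1, the G1 cyclin D1, was at 37.5, 58.0, 35.8, 44.0, and 86.2 CPM in C151S and 11.6, 28.9, 12.6, 16.2, and 16.5 CPM in wild-type livers, with no overlap (log2 fold change 1.62 ± 0.29 (SE), adjusted p = 0.00849). Ccnb2, a mitotic cyclin (1.09 ± 0.28), the spindle gene Knstrn (0.97 ± 0.26), and the helicase subunit Mcm6 (0.88 ± 0.22) were the others. Ccna2, cyclin A2, missed the threshold (0.77 ± 0.24, adjusted p = 0.0673). The count was 7 without C151S replicate 4, 2 without C151S replicate 3, C151S replicate 5, or wild-type replicate 1, and 1 without C151S replicate 1 or wild-type replicate 3, 4, or 5. It was 9 without C151S replicates 4 and 5, where 9.41% of all genes were higher, and 0 in 1 fit of all 30 libraries.

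In the lists of lipid, sugar, and inflammatory metabolism between 2 and 4 genes each were DEGs, to be read against 4.84% of all genes tested. Of 16 bile acid genes, Cyp8b1, the sterol 12-alpha-hydroxylase (-0.97 ± 0.17), and Cyp7b1 were lower, and the uptake carrier Slco1a4 (0.77 ± 0.17) and the sterol exporter Abcg5 (0.73 ± 0.17) were higher. Of 22 cholesterol synthesis genes, Mvd (-1.0 ± 0.16) and Insig1 (-0.80 ± 0.14) were lower, and the list median was -0.17. Of 18 fatty acid synthesis genes, Me1 and the acyltransferase Gpam (-0.67 ± 0.15) were lower, with a median of 0.00. Of 26 fatty acid oxidation genes, the omega-hydroxylase Cyp4a14 (1.79 ± 0.36) and the carnitine palmitoyltransferase Cpt1a (0.51 ± 0.12) were higher and the thiolase Acaa1b (-0.66 ± 0.10) lower.

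Cyp4a14 was at 577, 719, 338, 551, and 397 CPM in C151S and 231, 223, 64.5, 159.8, and 74.7 CPM in wild-type livers. The groups did not overlap, and the fitted level was 3.46 times as high in C151S. Of 16 gluconeogenesis genes, Fbp1 (0.53 ± 0.10) and the serine dehydratase Sds (1.06 ± 0.29) were higher. The metallothioneins Mt1 (1.45 ± 0.28) and Mt2 (1.24 ± 0.34) were higher among 23 acute phase genes, and the orosomucoids Orm1 (-0.82 ± 0.18) and Orm2 (-1.54 ± 0.42) were lower. In the interferon list of 24, Gbp2 (0.85 ± 0.23) was higher and Oasl1 (-0.62 ± 0.12) lower. Leaving out 1 liver lost the call in 8 of 10 fits for Sds and Gbp2, 7 for Mt2, 6 for Orm2, and 5 for Cpt1a. In 1 fit of all 30 libraries these 5 genes, Mt1, Orm1, and Oasl1 were no DEGs. Cyp8b1, Cyp7b1, Slco1a4, Abcg5, Mvd, Insig1, and Acaa1b, named above, lost the call in that fit as well. Of 19 drug-metabolizing P450 genes, 2 were higher DEGs, Cyp2a4 and Cyp2b9, and 0 lower, against 2.59% and 2.25% of all genes tested. Cyp2a4 and Cyp2b9 passed the filter on low counts through the C151S livers, so that their count is a description. Of the 19 log2 fold changes 13 were below 0, and without C151S replicates 4 and 5 there were 2 higher and 6 lower. None of 17 immediate early genes was a DEG (median log2 fold change 0.61, 2 of 17 below 0), and Fos spread from 1.11 to 66.2 CPM among C151S livers. Without the pair, 4 of the 17 immediate early genes were higher (median 0.92), 5 of the 22 cholesterol synthesis genes lower, 3 of the 18 fatty acid synthesis genes lower and 1 higher, 4 of the 26 fatty acid oxidation genes higher and 1 lower, 3 of the 16 bile acid genes higher and 3 lower, 4 of the 24 interferon genes higher, 2 of the 16 gluconeogenesis genes higher and 1 lower, and 2 of the 23 acute phase genes higher and 4 lower. In that fit 9.41% of all genes were higher and 4.78% lower.

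**Figure D4:**
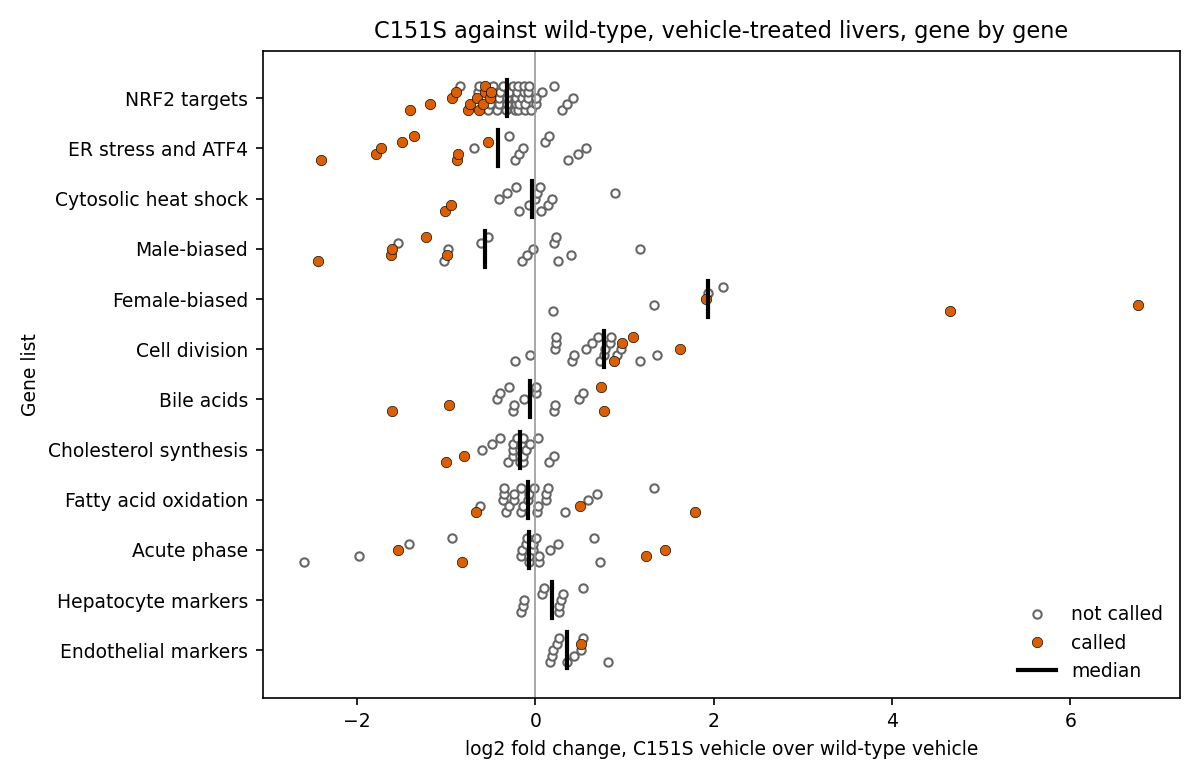
log2 fold change of C151S over wild-type vehicle-treated livers for each tested gene of 12 lists (x axis). Filled points were DEGs, open points were not, and the black bar is the list median. NRF2 targets lie mostly left of 0 with 13 filled points, and the hepatocyte markers have none.

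Markers of other liver cells were followed as whole lists. For 11 endothelial markers, of which Fcgr2b alone was a DEG (0.51 ± 0.10), the summed level was 515, 467, 545, 401, and 369 CPM in C151S and 358, 330.3, 363, 342, and 416 CPM in wild-type livers, with Stab2 the most abundant. C151S replicates 1 to 3 were above the wild-type range, and replicates 4 and 5 within it. For 12 stellate cell and fibroblast markers, with 0 DEGs, the sum was 427, 552, 538, 301, and 381 CPM in C151S and 376, 439.6, 288, 303, and 313 CPM in wild-type livers, and Dcn was highest. With all livers, the log2 fold changes of all 11 endothelial and all 12 stellate cell and fibroblast markers were above 0. Without C151S replicates 4 and 5, 7 of the 11 and 7 of the 12 markers were higher DEGs, against 9.41% of all genes. Vcam1, Col4a5, and Timp3, which cells other than hepatocytes also make, were higher in all 5 C151S livers, replicates 4 and 5 included, and the part of cell makeup in them was not tested.

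Of 7 B cell markers, Igkc (1.29 ± 0.23) and Jchain (1.15 ± 0.25) were higher, where 2.59% of all genes were higher and 2.25% lower. Log2 fold changes were above 0 for 5 of the 7 B cell markers and below 0 for 2, the lowest at -1.02. The immunoglobulin chain genes Igha (2.0 ± 0.28) and Ighg2b (2, 10, 6, 7, and 5 counts in wild-type libraries, for which no fold is given), outside that list and named after their values were seen, were higher too. Igkc was at 6.50, 13.8, 8.32, 7.35, and 7.36 CPM in C151S and 3.21, 4.87, 3.86, 3.11, and 2.79 CPM in wild-type livers. The sum over the list was 20.5, 30.5, 24.3, 16.9, and 15.9 CPM in C151S and 21.7, 18.7, 29.8, 21.2, and 14.3 CPM in wild-type livers, which overlapped. Ighm was its most abundant gene, and Ms4a1, a surface marker of B cells, was no DEG. Of 6 cholangiocyte markers, Spp1 was lower (-0.83 ± 0.23), a call lost in 7 of the 10 fits that left out 1 liver. Of the 13 Kupffer cell, 7 T and NK cell, 3 neutrophil, 5 erythroid, 4 pancreas and gut, and 2 fat markers tested, 0 were DEGs. Log2 fold changes were above 0 for 12 of the 13 Kupffer cell, 7 of the 7 T and NK cell, and 3 of the 3 neutrophil markers. They were above 0 for 2 of the 5 erythroid, 2 of the 4 pancreas and gut, and 2 of the 2 fat markers. Without C151S replicates 4 and 5, 4 of 8 T and NK cell, 2 of 13 Kupffer cell, 1 of 3 neutrophil, and 3 of 7 B cell markers were higher DEGs, against 9.41% of all genes, and 6 of 9 neutrophil markers were too low to be tested in the main comparison. There the erythroid, pancreas and gut, and fat markers held 0. Of 9 periportal markers Sds was the DEG, and of 9 pericentral markers there was none. Without the pair 4 periportal markers were higher (median log2 fold change 0.48) and 3 pericentral markers lower (median -0.34), against 9.41% and 4.78% of all genes, and the part of liver zonation in the other results was not tested.

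The genes around Keap1 were counted apart, since they are linked to the edited site. Within 5 Mb of Keap1, 75 genes were tested and 3 were DEGs, 4% against 4.84% over all genes. They were Smarca4, a chromatin remodelling ATPase (-0.51 ± 0.08), Anln, an actin-binding cytokinesis protein (1.05 ± 0.23), and Eepd1 (-0.85 ± 0.12). By chromosome, the share of genes called ranged from 3.27% on chromosome 17 to 6.31% on chromosome 5.

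The same genotypes were compared in other mice, those given CDDO-Me, to follow the 675 DEGs. Between CDDO-Me-treated C151S and wild-type livers 692 of 13844 genes were DEGs (5%). That count was 1303 without C151S CDDO-Me replicate 1 and 379 without wild-type CDDO-Me replicate 1, and it lay between 381 and 441 without C151S replicate 4 or 5 or wild-type replicate 2, 3, or 4 of that arm. Of the 675, 654 were tested there, 619 had the same direction, 161 were DEGs in that direction (24.6%), and 1 was a DEG in the other direction. The last was Abcc12, a transporter, with a log2 fold change of 1.18 after vehicle and -2.19 after CDDO-Me. The higher DEGs had a median of 0.84 after vehicle and 0.57 after CDDO-Me, and the lower DEGs -0.76 and -0.52. The 675 were picked by size and adjusted p after vehicle, so that smaller medians in other mice follow in part from that choice. These mice came from the same colonies, so that this says nothing of colony against genotype.

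**Figure D5:**
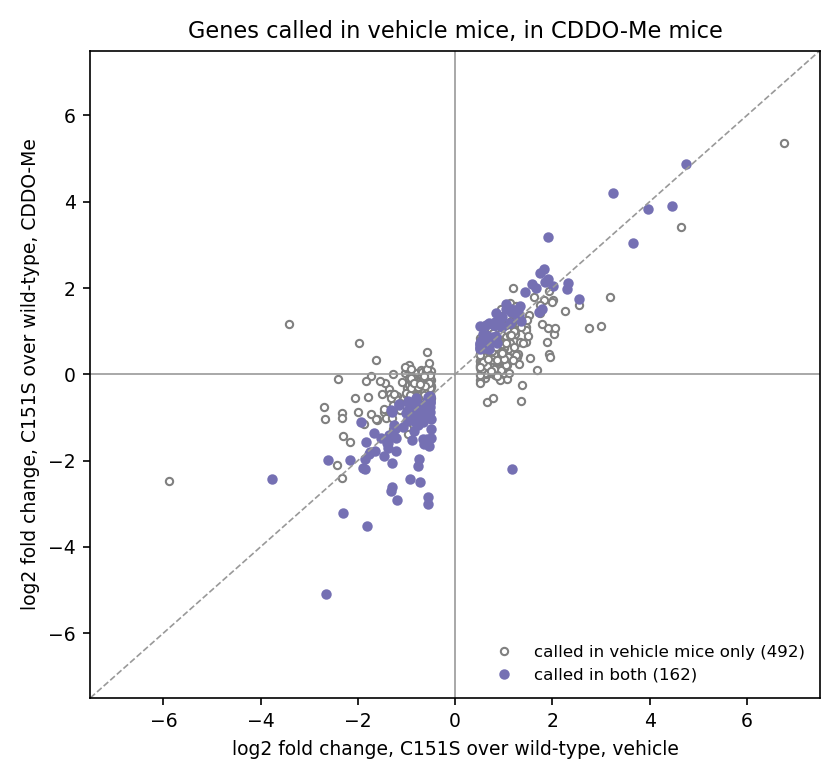
log2 fold change of C151S over wild-type after vehicle (x axis) and after CDDO-Me (y axis) for the 654 genes that were DEGs after vehicle and tested in both. Filled points were DEGs in both, in either direction, and the dashed line marks equal values. Most points share the sign of the vehicle difference, 619 of 654.

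For NRF2 targets the difference after CDDO-Me also holds the drug response of wild-type mice. There 46 of the targets were lower DEGs in C151S, against 2.8% of all genes, with a median log2 fold change of -1.53, against 13 and -0.32 after vehicle. The widening passed the test for 11 of the targets named here. The log2 difference changed by -3.09 for Nqo1 (adjusted p = 4.65e-07), -2.43 for Gstm1, and -2.29 for Srxn1. For Me1, by contrast, the change was -0.19 (adjusted p = 0.942), and the difference from wild-type was -1.41 after vehicle and -1.59 after CDDO-Me. Ide (0.05, adjusted p = 0.956) and Gpat3 (-0.80, adjusted p = 0.67) also showed no called change between the treatments.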

How the data were processed

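The authors deposited raw counts per gene from 1 stranded mRNA library per liver. Per the labels and the study's methods, reads were checked with fastp, aligned to mm10 with STAR 2.7.7, and counted for the strand of the kit against GENCODE M23. Counts carry no molecular identifiers, so a floor of 3 counts covers counting error only. Of 55335 genes, 55154 were matched by identifier to GENCODE M21 for symbols, and 4 summary lines were left out. Depth per library is given above.

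Groups came from the labels. The 2 groups of each comparison were filtered with filterByExpr, scaled with TMM, and tested by quasi-likelihood (legacy fit) in edgeR 4.0.16 under R 4.3.3, with Benjamini-Hochberg adjustment over all genes tested. DEGs had an adjusted p under 0.05 and a log2 fold change of 0.5 or more in size. The code was tested on simulated data. The SE of a log2 fold change is its size over the root of the F statistic. The change of a difference between treatments was a contrast in 1 fit of 30 libraries. The date of isolation, a covariate of the study, is not given in the sources used here and was not used. Whether livers of 1 group came from separate litters or days is not given, so p-values measure the spread between these mice.

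The genes named are Keap1, Nfe2l2, those the study names in its RNA-seq results, the 10 DEGs of lowest p in each direction, up to 4 DEGs of lowest p per list, and DEGs within 5 Mb of Keap1. Lama3, which the study names, was no DEG (log2 fold change 0.23, adjusted p = 0.183, edgeR). Dpp3, Klf6, Btg2, and Wdfy1 were followed as well and were no DEGs in the comparison of 5 with 5. Without C151S replicates 4 and 5, Klf6 (log2 fold change 0.98), Btg2 (2.27), and Wdfy1 (0.54) were higher DEGs. Wdfy1 was the 1 gene tested of a list of 4 C57BL/6 substrain genes. It was also a higher DEG in C151S after CDDO-Me (log2 fold change 1.16), and the part of substrain was not tested. Other names were chosen after their values were seen. The comparison and all lists were chosen with earlier results of these data known. Alternatives were DESeq2 1.42.0, RLE and upper-quartile scaling, other filters, the newer quasi-likelihood fit, a replicate block, all libraries in 1 fit, 1 surrogate variable from sva 3.50.0, no size threshold, and each liver left out.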

Additional observations from a re-analysis of the deposited data

Results flagged for a closer look

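For the genes named, each group of 5 livers was checked for a single liver far from the rest on the log2 scale. The gap to the nearest liver, as a share of the group's range, passed 0.71 in 15 of 214 groups, where chance passes about 1 in 20. In C151S livers this share was 0.949 for Gm32468 (replicate 3 highest), 0.882 for Aldh1a1 (replicate 4 highest), 0.786 for Hspb1 (replicate 1 lowest), 0.779 for Cyp17a1 (replicate 4 lowest), 0.772 for Dsg1c (replicate 3 lowest), 0.744 for Cyp4a12a (replicate 2 lowest), and 0.72 for Srxn1 (replicate 5 highest). In wild-type livers replicate 2 stood apart for Cyp2a4 (0.899, highest), Nfe2l1 (0.82, lowest), Ide (0.766, lowest), and Cyp17a1 (0.742, highest). Replicate 1 was highest for Abcc3 (0.803) and Ugt2b5 (0.766), replicate 4 lowest for Lad1 (0.802), and replicate 3 lowest for Mt1 (0.762).

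For 12 named genes the genotype difference was not the same with CDDO-Me as with vehicle, by an edgeR contrast in 1 fit of 30 libraries. The log2 difference of C151S over wild-type with CDDO-Me minus that with vehicle was -4.84 for Cbr3, -3.09 for Nqo1, -2.43 for Gstm1, -2.29 for Srxn1, -1.77 for Gstm4, -1.64 for Gclc, -1.51 for Ugt2b35, -1.38 for Aox1, -1.35 for Ephx1, -0.95 for Txnrd1, and -0.89 for Gsr. These values hold the response of wild-type mice to the drug. It was 2.29 for Creld2, a lower DEG after vehicle in livers that the contrast reuses.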

How the results depend on the processing

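The 675 DEGs became 1073 with DESeq2 (648 higher), 1053 with 1 surrogate variable (541 lower), 382 in 1 fit of all 30 libraries (166 higher), and 1160 without a threshold on the fold change (662 lower). Leaving out C151S replicates 4 and 5, an alternative added after the data were seen, gave 2030, 1346 of them higher and 684 lower. Leaving out each liver in turn gave 390 to 1168 DEGs, 171 to 698 of them higher and 217 to 470 lower. Direction was kept by all 675 in each of these fits of C151S against wild-type. The fits reuse livers in which the 675 were picked by size, so that this is no independent support. The C151S against Nrf2-knockout comparison went from 50 DEGs to 191 with DESeq2, 79 without the filter, 9 with the replicate block, and 29 to 54 with 1 liver left out. Without 1 liver, the Nrf2-knockout against wild-type comparison ranged from 949 to 2050. The C151S against wild-type comparison under CDDO-Me gave 1209 DEGs with DESeq2 and 379 to 1303 without 1 liver. The cause of these shifts was not tested. The genes named whose genotype difference changed with treatment numbered 12, or 10 to 15 without 1 of the 20 livers of that contrast, its alternatives all added after the data were seen.

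Replicate numbers are shared between groups, but nothing in the sources used here says that they mark a pair, and deviations of same-numbered livers correlated at -0.01 to 0.12 over 2000 genes, mean 0.05. With the replicate block 567 genes were called, 489 of them among the 675, and of 83 named DEGs 8 lost the call (Bcl6, Abcg5, Cpt1a, Mt2, Gbp2, Ccnb2, Knstrn, and Ciart). With upper-quartile scaling Gstm1, Tkt, Abcc3, Atf4, Spp1, and Smarca4 lost it, and in 1 fit of all libraries 36 did. Leaving out any 1 liver kept 53 of the 83 and lost 4 (without C151S replicate 4) to 23 (without C151S replicate 2). Direction turned for Per2 (-0.69), Usp2 (-0.45), and Arntl (0.02) without C151S replicates 4 and 5, and for Nqo1 without wild-type replicate 1 (0.02) or 2 (0.03), none of them a DEG in the comparison of 5 with 5. With 5 livers a group, genes listed as not called may differ by less than these data can show.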
